A study of Mus musculus with 18 samples.

Results

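Nuclear genes of respiratory complexes II to V were picked by symbol alone: Sdha to Sdhd, every symbol that begins with Uqcr, with Cox and a digit from 4 to 8, or with Atp5, and Cyc1 and Cycs. They came to 41 of the 15307 features with a read, of which 9787 carried a symbol. Complex II had 4 of these genes, complex III 9, cytochrome c 1, complex IV 11 and complex V 16. No measured value entered the rule, though it was chosen with earlier results of these data known. All 41 passed the filter on low counts in every fit.

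The study sequenced ribosome footprints, the pieces of mRNA that a translating ribosome shields from nuclease, and total RNA from the same lysates of GTML cells. This mouse medulloblastoma line expresses human MYCN and luciferase from a tetracycline-responsive transgene switched on through the Glt1 promoter, and all groups carry it. Cells were given 50 nM Rapalink-1, 5 nM rapamycin or the solvent DMSO for 3 h, with 3 replicates of each, which made 9 footprint and 9 RNA libraries. Rapamycin inhibits the kinase complex mTORC1 allosterically, and Rapalink-1 links rapamycin to an inhibitor of the ATP site of the kinase. The labels do not say whether replicates were separate cultures, so p-values measure the spread between these samples, which may be technical.

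As background, the respiratory chain passes electrons from complex II (and complex I) through complex III and cytochrome c to oxygen at complex IV, and complex V, the ATP synthase, uses the proton gradient built on the way to make ATP. Complex II is encoded wholly in the nucleus, while complexes III, IV and V also hold subunits read from mitochondrial DNA, so their assembly needs products of both genomes. Translation of several nuclear mitochondrial mRNAs, ATP synthase subunits among them, is known to depend on mTORC1 through the eIF4E-binding proteins. The mRNAs known as TOP mRNAs, which begin with a C followed by a run of pyrimidines, depend on mTORC1 most.

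The bases around annotated transcription starts are shown for the 2 genes with the largest losses of translational efficiency, Atp5g2 and Cox7a2l, beside close relatives that lost less or nothing, and for the other 2 genes of the set with a long pyrimidine run. Each line gives 10 bases before and 20 bases from the start that RefSeq annotates in GRCm38.p6, read 5′ to 3′ on the gene's strand, so the start is base 11. Capitals mark the run of C and T that begins within the first 5 bases.
Atp5g2 (chr15:102671028-102671057, minus strand): gcgcccccgcCCCTCTCTgtcttctctgcc
Atp5g1 (chr11:96075612-96075641, minus strand): ggctaaagctgggaggtgagtcagtcacct
Atp5g3 (chr2:73911307-73911336, minus strand): cggcgcggataagagccgcaccgcgcttgc
Cox7a2l (chr17:83514314-83514343, minus strand): ggggaagccgggTCCTTTTCTagggcggtc
Cox7a2 (chr9:79759834-79759863, minus strand): tccggaggctagaCgggccgctgcgagaag
Cox7c (chr13:86046776-86046805, minus strand): tgtaactcccaTCTTCCCTTTCggtcttcg
Atp5e (chr2:174464082-174464111, minus strand): gtccgcgtaccccaCCCCTTCCgctactca
The run was 8 bases long in Atp5g2 and began at the annotated first base, a C. It was 9 bases long in Cox7a2l, 11 in Cox7c and 8 in Atp5e, and began at the third, the second and the fifth base. These 4 are all the genes of the set with a run of at least 8 C or T, or 12.1% of the 33 for which a start could be used, against 4.2% of 27025 genes in the same table. A C followed directly by 4 more pyrimidines at the first base was found in 3, Atp5g2, Uqcrfs1 and Atp5d, against 3.0% of all genes. The genes compared with were not limited to those read in these cells. Of the 4 with a long run, Cox7c, with the longest, fell least in efficiency with Rapalink-1. Atp5c1, with a run of 3 bases at each of its annotated starts, fell more than Cox7c and Atp5e. Matches are letters near an annotated start, and which start the cells use was not measured. The RefSeq spans of Atp5g1, Atp5g3 and Cox7a2 begin upstream of the window shown.

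With Rapalink-1, translational efficiency, meaning footprints set against RNA of the same gene, was lower than with DMSO for 32 of the 41 genes and higher for 2, at an adjusted p under 0.05. Over all 10988 genes tested 19.9% were lower and 22.3% higher. The median log2 change of the 41 genes was -0.41, against 0.06 over all genes, and 39 of them lay below that overall median. Efficiency is scaled to the other genes of a library, and no spike-in was recorded. Under library totals without further scaling the median of all genes moves up by 0.37, and 13 of the 41 genes were then lower and 8 higher. All 13 were among the 32, and 39 lay below the overall median. Both follow from a shift that is common to all genes, so they are no check of the result. In such bulk samples fewer cells and less RNA per cell cannot be told apart.

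Among the complexes, complex V stood lowest, with a median of -0.63, and 12 of its 16 genes fell while Atp5j rose. Complex III had a median of -0.35 with 8 of 9 genes lower, complex IV -0.26 with 8 of 11 lower and Cox7b higher, and complex II -0.23 with 3 of 4 lower. Under library totals complex V stayed negative at -0.26, with 10 genes lower and 3 higher, whereas complexes II, III and IV turned to 0.14, 0.02 and 0.11. The change of scaling moves all genes of a comparison alike, so it cannot alter the order of the complexes and is no check of it. No test of one complex against another was made, since the genes of a complex are not replicates.

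**Figure D1:**
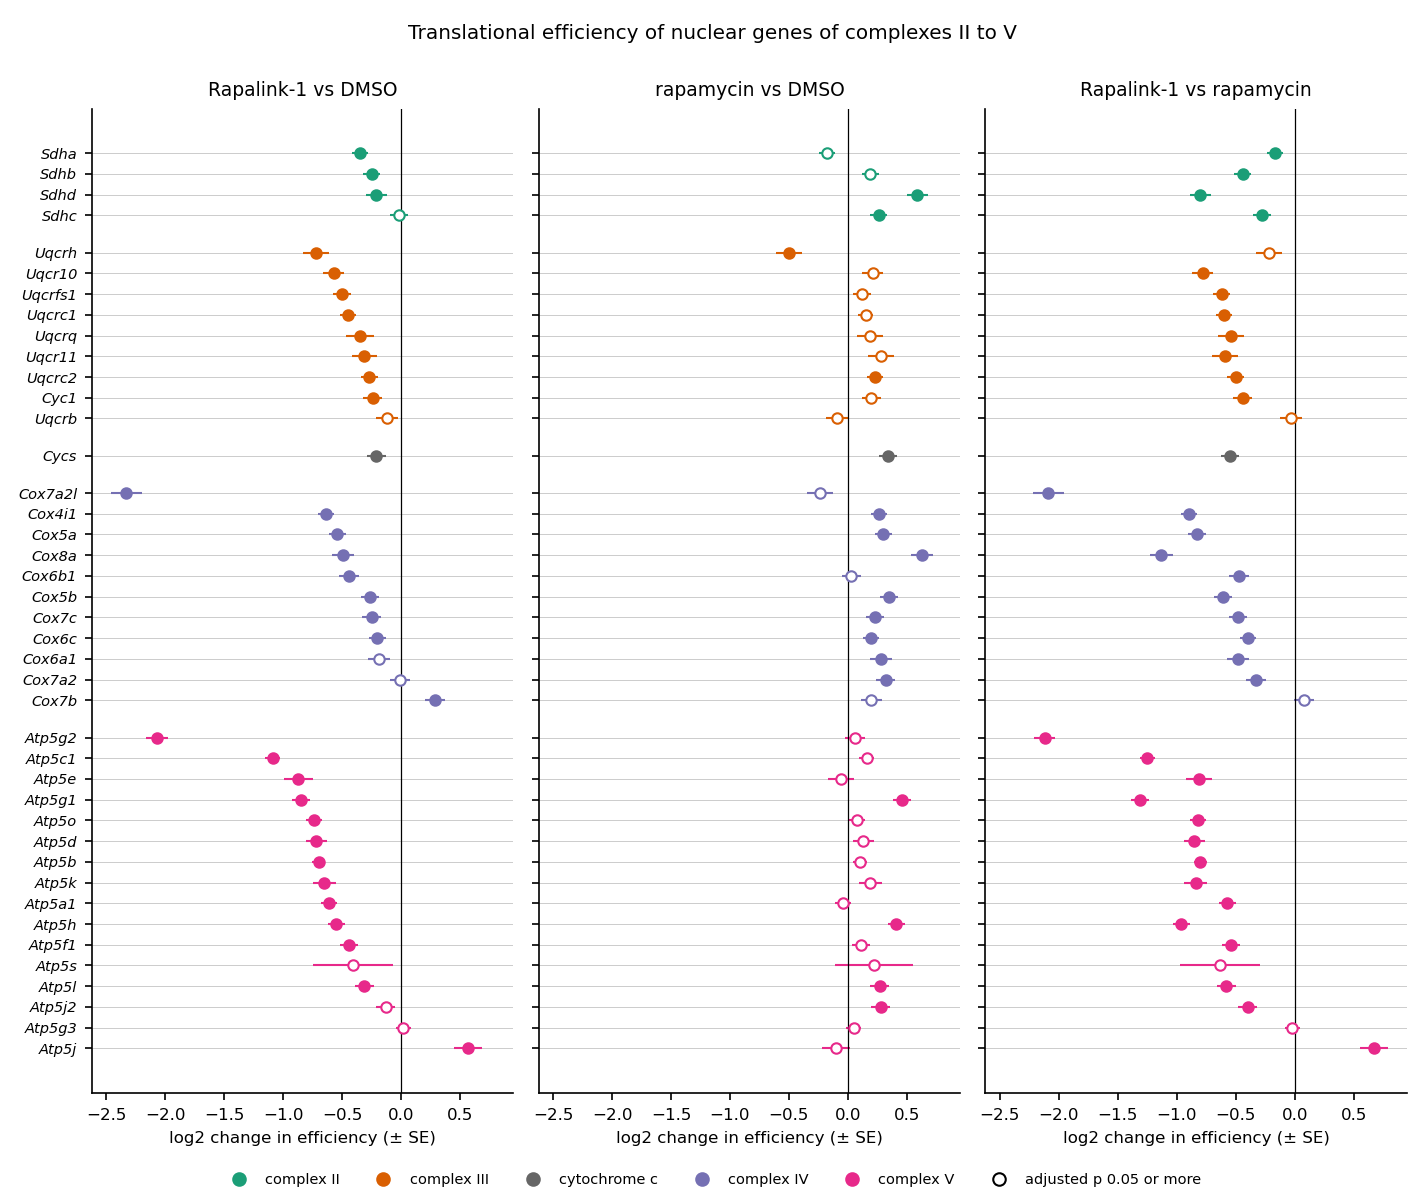
Log2 change in translational efficiency (± SE, 3 replicates per treatment) of each of the 41 genes, one panel per comparison, ordered within complexes by the change with Rapalink-1 against DMSO. Filled points passed an adjusted p of 0.05; Cox7a2l at -2.33 and Atp5g2 at -2.07 stand apart on the left of the first panel, and most points of the middle panel, rapamycin against DMSO, lie right of 0.

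The level of the ratio of footprints to RNA in each lysate, from the same counts, was lowest in complex V with Rapalink-1, and complex IV lay below complex III. These are levels, whereas the medians above are changes. Complex V had the lowest mean in DMSO too, at 0.04, though its lysates overlapped those of complex IV, at 0.07. In complex V the median log2 ratio was -0.59, -0.60 and -0.69 in the Rapalink-1 lysates, 0.35, 0.38 and 0.37 in the rapamycin lysates, and 0.01, 0.04 and 0.08 in the DMSO lysates. In complex IV it was -0.55, -0.40 and -0.30 with Rapalink-1, 0.33, 0.28 and 0.40 with rapamycin, and 0.13, -0.04 and 0.11 with DMSO. The 3 treatments did not overlap in either complex, with Rapalink-1 lowest and rapamycin highest. Complex III averaged -0.17 ± 0.042, 0.38 ± 0.033 and 0.23 ± 0.046, and complex II -0.03 ± 0.028, 0.47 ± 0.028 and 0.22 ± 0.042, in the order Rapalink-1, rapamycin and DMSO (SD, n = 3 each). The same median over all 10988 genes stayed between -0.06 and 0.02 in all lysates. The scaling of each assay places the typical gene near 0, so this follows from the scaling and is no measure of total translation.

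**Figure D2:**
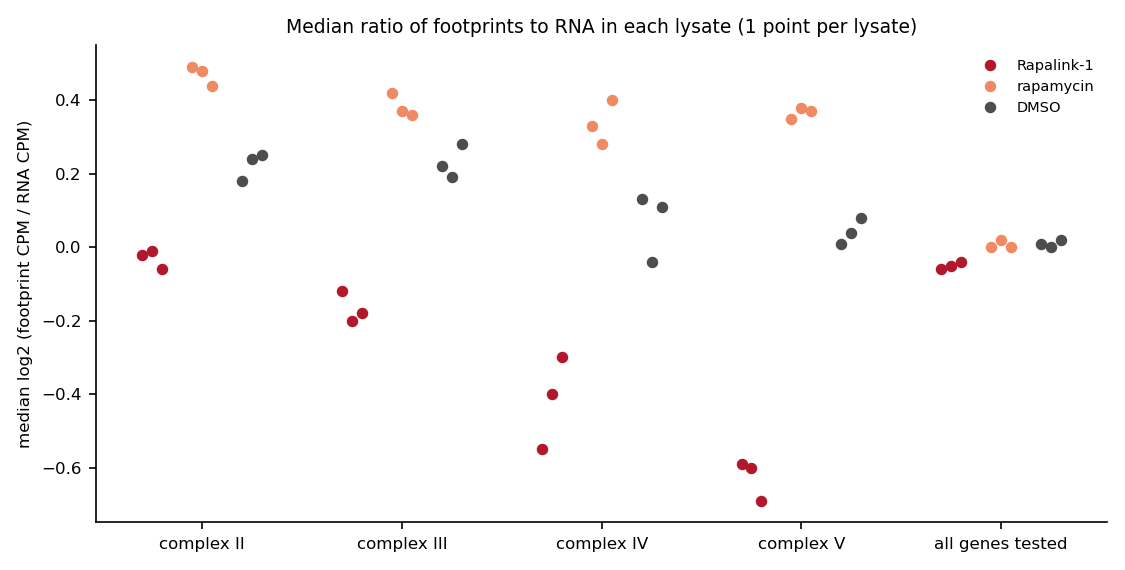
Median over the genes of a complex of log2 (footprint CPM / RNA CPM), one point per lysate, 3 lysates per treatment, with all genes tested at the right. Rapalink-1 lysates lie lowest and rapamycin lysates highest in each complex, and in complex V the Rapalink-1 lysates reach -0.69.

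In complex V, the F1 part is made of the catalytic head and its rotor shaft. All 5 genes of this F1 part fell in efficiency, by 0.61 to 1.09, and also under library totals. Atp5c1 encodes the gamma subunit, the shaft that turns inside the head, and lies on chromosome 2 from 10056030 to 10080510, with a small nucleolar RNA gene inside it. Its footprints were 281, 270 and 288 CPM (read counts scaled to a common library size with TMM factors) with Rapalink-1 and 584, 554 and 574 CPM with DMSO. Its RNA was 685, 670 and 659 CPM with Rapalink-1, against 624, 610 and 640 CPM with DMSO. Neither pair overlapped. RNA rose by 0.10 ± 0.041 (adjusted p = 0.042), though it stood at -0.03 under library totals, and footprints fell by 1.03 ± 0.051. Efficiency fell by 1.09 ± 0.065 (adjusted p = 9.6e-21), and 0.72 under library totals.

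The catalytic subunits beta and alpha are encoded by Atp5b and Atp5a1. Atp5b had 1543, 1498 and 1478 footprint CPM with Rapalink-1, against 2048, 2045 and 1925 with DMSO. Its RNA was 3040, 2998 and 2944 CPM with Rapalink-1 and 2424, 2443 and 2294 CPM with DMSO, again with no overlap. RNA thus rose by 0.33 ± 0.038 (adjusted p = 2e-09) while footprints fell by 0.41 ± 0.046 (adjusted p = 8.4e-10), and efficiency fell by 0.70 ± 0.058. Under library totals the changes were 0.19 in RNA, -0.14 in footprints (adjusted p = 0.012) and -0.33 in efficiency. Atp5a1 had 1354 ± 4.81 footprint CPM with Rapalink-1 against 1642 ± 39.0 with DMSO, and 2462 ± 27.8 RNA CPM against 1902 ± 202 (SD, n = 3). Its efficiency fell by 0.61 ± 0.069 (adjusted p = 1.5e-10). Under library totals efficiency stood at -0.24, RNA at 0.24 and footprints at -0.01 (adjusted p = 0.93). Part of Atp5a1 overlaps Haus1, and Atp5b holds a microRNA and a small nucleolar RNA gene. The delta and epsilon subunits of the shaft, Atp5d and Atp5e, which were named after their values were seen, fell by 0.72 ± 0.089 and 0.87 ± 0.12, or 0.36 and 0.50 under library totals.

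The 3 genes for subunit c, whose copies form the proton-driven ring, encode the same mature protein and behaved differently. Atp5g2, on chromosome 15 from 102662868 to 102671047, had 111, 113 and 119 footprint CPM with Rapalink-1, 402, 387 and 360 CPM with rapamycin, and 385, 398 and 495 CPM with DMSO. Rapalink-1 libraries were far below the others, and rapamycin and DMSO libraries overlapped. Its RNA was 402, 376 and 388 CPM with Rapalink-1, 297, 298 and 278 CPM with rapamycin, and 348, 331 and 327 CPM with DMSO, so RNA was highest where footprints were lowest. Efficiency fell by 2.07 ± 0.09 with Rapalink-1 (adjusted p = 3.7e-22), and stood at 0.06 ± 0.088 with rapamycin (adjusted p = 0.74).

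Atp5g1, on chromosome 11 from 96072793 to 96075694, had 153, 133 and 133 footprint CPM with Rapalink-1, 330, 338 and 347 CPM with rapamycin, and 281, 265 and 263 CPM with DMSO. The 3 treatments did not overlap: Rapalink-1 lay below DMSO and rapamycin above it. Efficiency fell by 0.85 ± 0.076 with Rapalink-1 (adjusted p = 5.7e-14), or 0.49 under library totals, and rose by 0.46 ± 0.074 with rapamycin (adjusted p = 7.5e-06). Atp5g3, on chromosome 2 from 73908447 to 73912464, had 992 ± 9.69 footprint CPM with Rapalink-1, 1130 ± 20.8 with rapamycin and 1099 ± 26.1 with DMSO (SD, n = 3). Its efficiency stood at 0.02 ± 0.063 with Rapalink-1 (adjusted p = 0.8), and 0.39 under library totals (adjusted p = 8e-07).

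As a result, the c-subunit footprints shifted between the 3 genes. Atp5g2 supplied 8.91, 9.08 and 9.59% of their footprints with Rapalink-1, 21.8, 21.0 and 19.4% with rapamycin, and 21.5, 22.5 and 27.1% with DMSO. Atp5g3 supplied 79.6 ± 0.736% with Rapalink-1, 61.0 ± 0.853% with rapamycin and 61.3 ± 2.35% with DMSO (SD, n = 3). In RNA the share of Atp5g2 moved the other way, at 37.9 ± 0.858% with Rapalink-1, 30.8 ± 1.25% with rapamycin and 33.0 ± 1.01% with DMSO. These are shares of reads, not corrected for transcript length, so changes between treatments can be read from them but not levels of the genes. Rapalink-1 and DMSO libraries did not overlap in any of them, and the two-sided exact permutation p was 0.1, the smallest that 3 against 3 can give.

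**Figure D3:**
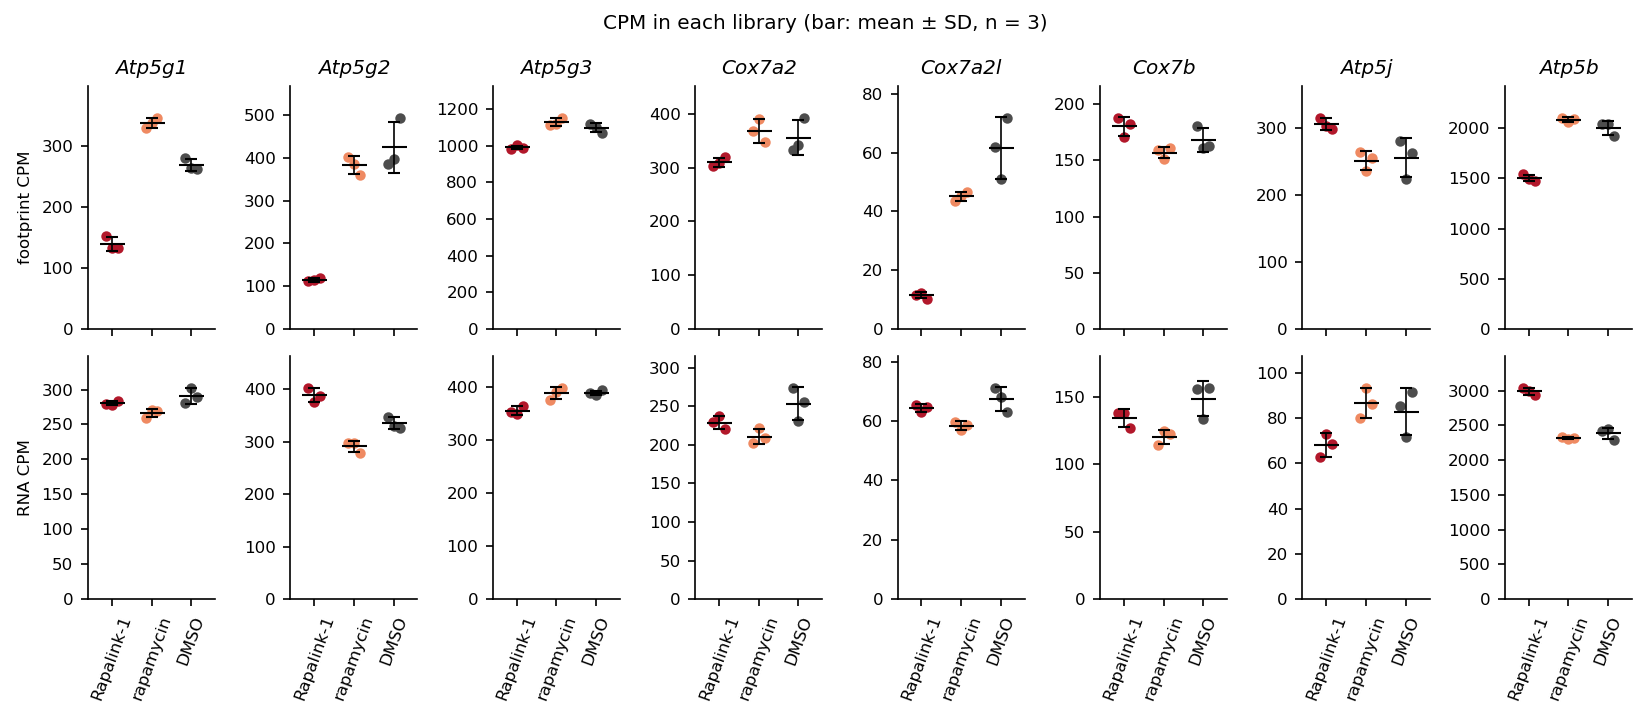
CPM of 8 genes in each library, footprints above and RNA below, with the mean and SD of 3 replicates per treatment and an axis from 0 in each panel. Footprints of Atp5g2 with Rapalink-1, at 111 to 119 CPM, and of Cox7a2l, at 10.3 to 12.2 CPM, lie far below the other treatments while their RNA does not, and footprints of Atp5j lie above.

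In the peripheral stalk, which holds the head still, 3 of 4 genes fell and 1 rose. Atp5f1, 1 of the 3, stood at -0.07 under library totals (adjusted p = 0.46). Atp5o, the subunit that ties the stalk to the head and was named after its values were seen, had 255 ± 5.72 footprint CPM with Rapalink-1 and 437 ± 21.5 with DMSO, and efficiency fell by 0.74 ± 0.068, or 0.37 under library totals. Atp5j encodes coupling factor 6 and lies on chromosome 16 from 84827871 to 84835857. It had 315, 303 and 298 footprint CPM with Rapalink-1, against 280, 224 and 263 with DMSO. Its RNA was 62.8, 73.2 and 68.7 CPM with Rapalink-1, against 85.2, 71.6 and 91.7 CPM with DMSO. Footprints did not overlap and RNA did. Efficiency rose by 0.57 ± 0.12 (adjusted p = 0.00058), footprints by 0.25 ± 0.063 (adjusted p = 0.00086), and RNA fell by 0.27 ± 0.076 (adjusted p = 0.0044). Under library totals these values were 0.94, 0.53 and -0.41. Atp5j shares its locus with Gabpa, and reads of overlapping genes cannot be told apart here.

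The 3 small membrane subunits Atp5j2, Atp5k and Atp5l had a median change in efficiency of -0.31, with Atp5k and Atp5l lower, of which Atp5l stood at 0.05 under library totals. Atp5s, coupling factor B, had only 4.09 ± 0.975 footprint CPM with Rapalink-1 and 5.40 ± 2.07 with DMSO. Its change of -0.41 ± 0.34 (adjusted p = 0.35) has the largest error of the set, so a difference of that size was not detectable at its depth.

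In complex IV, 1 gene stood apart. Cox7a2l, on chromosome 17 from 83501917 to 83514333, encodes a relative of the subunit Cox7a2 that joins complex III to complex IV in supercomplexes. It had 11.6, 12.2 and 10.3 footprint CPM with Rapalink-1, 43.5, 45.1 and 46.6 CPM with rapamycin, and 61.8, 51.0 and 71.9 CPM with DMSO. Its RNA was 65.3, 62.9 and 64.8 CPM with Rapalink-1, 59.7, 56.8 and 58.7 CPM with rapamycin, and 71.1, 68.0 and 63.0 CPM with DMSO. Footprints of the 3 treatments did not overlap, whereas RNA of Rapalink-1 and DMSO did. Efficiency fell by 2.33 ± 0.13 with Rapalink-1 (adjusted p = 3.7e-22), the lowest value among the 41 genes, and 1.96 under library totals. With rapamycin footprints fell by 0.46 ± 0.089 (adjusted p = 0.00022) and RNA by 0.21 ± 0.067 (adjusted p = 0.015), and efficiency stood at -0.24 ± 0.11 (adjusted p = 0.14). The RNA call was lost without DMSO replicate 1 (adjusted p = 0.11) or rapamycin replicate 2 (adjusted p = 0.07), and efficiency passed without DMSO replicate 2, at -0.35 (adjusted p = 0.032).

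Of all footprints on Cox7a2 and Cox7a2l, Cox7a2l held 3.55 ± 0.374% with Rapalink-1, 10.9 ± 0.802% with rapamycin and 14.7 ± 1.48% with DMSO (SD, n = 3). In RNA its share was 21.0 to 22.8% with Rapalink-1, 20.4 to 22.8% with rapamycin and 19.8 to 22.7% with DMSO. The footprint shares did not overlap between any pair of treatments, at a two-sided exact permutation p of 0.1, the smallest possible, and the RNA shares did. Cox7a2 itself, a subunit of the mature enzyme, had a change in efficiency of -0.01 ± 0.083 (adjusted p = 0.95), which was 0.36 under library totals.

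Among the 10 other subunits of complex IV, 7 fell and Cox7b rose. Cox4i1, a regulatory subunit, had 471, 462 and 468 footprint CPM with Rapalink-1, against 683, 682 and 700 with DMSO. Its efficiency fell by 0.64 ± 0.068 (adjusted p = 2.8e-11), or 0.27 under library totals. Cox5a had 248 ± 8.34 footprint CPM with Rapalink-1 and 403 ± 23.0 with DMSO, and its efficiency fell by 0.54 ± 0.074 (adjusted p = 3.8e-08), or 0.17 under library totals, which did not pass (adjusted p = 0.052). Cox6b1 fell by 0.44 ± 0.084 and Cox7c by 0.25 ± 0.079, the first at -0.07 and the second at 0.12 under library totals. Cox7b, on the X chromosome, had 188, 171 and 182 footprint CPM with Rapalink-1 against 180, 161 and 163 with DMSO, which overlap. Its RNA was 134 ± 6.48 CPM with Rapalink-1 against 148 ± 13.1 with DMSO (SD, n = 3), and the rise in efficiency was 0.29 ± 0.086 (adjusted p = 0.0062), or 0.65 under library totals.

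In complex III, Uqcrh changed most. It encodes the hinge protein that helps cytochrome c1 hand electrons to cytochrome c, and lies on chromosome 4 from 116066965 to 116075070, where a pseudogene overlaps it. It had 136, 161 and 144 footprint CPM with Rapalink-1, 169, 208 and 192 CPM with rapamycin, and 216, 224 and 220 CPM with DMSO. Its RNA was 225, 213 and 219 CPM with Rapalink-1, 232, 239 and 241 CPM with rapamycin, and 172, 226 and 183 CPM with DMSO. Both drugs lay below DMSO in footprints. Efficiency fell by 0.72 ± 0.11 with Rapalink-1 (adjusted p = 1.8e-05), or 0.35 under library totals, and by 0.50 ± 0.11 with rapamycin (adjusted p = 0.003). It was the only one of the 41 genes that passed as lower in efficiency with rapamycin. The authors' deposited table also has Sdha lower, at -0.18. RNA of Uqcrh passed as higher with rapamycin, and 1 DMSO library had RNA close to that of the drugs.

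Of the redox carriers of complex III, the iron-sulphur protein Uqcrfs1 fell in efficiency by 0.50 ± 0.075 (adjusted p = 2.1e-07), or 0.13 under library totals (adjusted p = 0.15). Its footprints were 187, 171 and 187 CPM with Rapalink-1, against 268, 281 and 263 with DMSO. Cytochrome c1, Cyc1, fell in efficiency by 0.24 ± 0.079 (adjusted p = 0.013). Leaving out DMSO replicate 3 (adjusted p = 0.13) or Rapalink-1 replicate 1 (adjusted p = 0.099) ended this call, and the sign turned under library totals, to a log2 change of 0.13. The core protein Uqcrc1 rose in RNA by 0.24 ± 0.042 and fell in footprints by 0.25 ± 0.05, though RNA stood at 0.11 and footprints at 0.03 under library totals. Its efficiency fell by 0.45 ± 0.065 (adjusted p = 1.1e-07), or 0.08 under library totals (adjusted p = 0.3). The small subunit Uqcr10 had 93.6 ± 5.26 footprint CPM with Rapalink-1 and 146 ± 17.6 with DMSO (SD, n = 3), and fell in efficiency by 0.57 ± 0.089, or 0.20 under library totals (adjusted p = 0.054). Uqcrb stood at -0.12 ± 0.093 (adjusted p = 0.3).

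Cycs, cytochrome c, lost RNA and footprints alike. It had 174, 176 and 161 footprint CPM with Rapalink-1 against 262, 258 and 269 with DMSO, and 208, 214 and 191 RNA CPM against 270, 255 and 275. Footprints fell by 0.63 ± 0.057 (adjusted p = 2.9e-12) and RNA by 0.38 ± 0.052 (adjusted p = 7.6e-08). Efficiency stood at -0.21 ± 0.079 (adjusted p = 0.03), which was lost without DMSO replicate 2 or any of the Rapalink-1 replicates (adjusted p from 0.051 to 0.081) and turned in sign to 0.16 under library totals. Counts of Cycs stayed within 6.2% of those of Gm10053 in all libraries, so reads of the 2 cannot be told apart and the values are uncertain.

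Complex II, which also works in the citric acid cycle, had the smallest median change. Sdha, the flavoprotein that oxidises succinate, had 332, 339 and 344 footprint CPM with Rapalink-1 and 351, 346 and 336 CPM with DMSO, which overlap. Its RNA was 289, 286 and 303 CPM with Rapalink-1, against 240, 222 and 221 CPM with DMSO, and rose by 0.36 ± 0.048 (adjusted p = 4.2e-08). The fall in efficiency of 0.35 ± 0.069 (adjusted p = 5.3e-05) therefore came with more RNA and footprints at -0.03 ± 0.051. Under library totals its sign turned, to a log2 change of 0.02 (adjusted p = 0.8), and RNA rose by 0.22. The iron-sulphur subunit Sdhb fell in efficiency by 0.25 ± 0.072 (adjusted p = 0.0044), and its sign turned under library totals, to a log2 change of 0.12 (adjusted p = 0.15). The membrane anchor Sdhd stood at -0.21 ± 0.087 (adjusted p = 0.049), which was lost with DESeq2 size factors (0.051), with the DESeq2 Wald test (0.065) and without DMSO replicate 1 or 2 or Rapalink-1 replicate 2 or 3 (from 0.057 to 0.26). Its sign turned under library totals, to a log2 change of 0.16. The other anchor, Sdhc, stood at -0.02 ± 0.076 (adjusted p = 0.84).

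Footprints alone with Rapalink-1 were lower for 35 of the 41 genes and higher for 1, Atp5j, against 28.0% and 25.7% of 11281 genes. Without DMSO replicate 1, 2 were higher. The complex medians were -0.60 for V, -0.35 for III, -0.32 for IV and -0.15 for II. Under library totals 22 were lower and 7 higher. RNA was higher for 9 and lower for 8, close to the 19.4% and 18.8% of 11271 genes, and without Rapalink-1 replicate 1 only 5 were lower. The members higher in RNA were Sdha, Uqcrc1, Uqcrc2, Cox4i1, Cox6b1, Atp5a1, Atp5b, Atp5c1 and Atp5g2, and 4 of these, Atp5a1, Atp5b, Sdha and Uqcrc1, were also higher under library totals. RNA of 27 genes was lower under library totals. Under these totals the median change of all genes stood at -0.135 in RNA and 0.283 in footprints. The shares of all genes called there were not counted, so these counts show no loss or gain particular to the set.

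**Figure D4:**
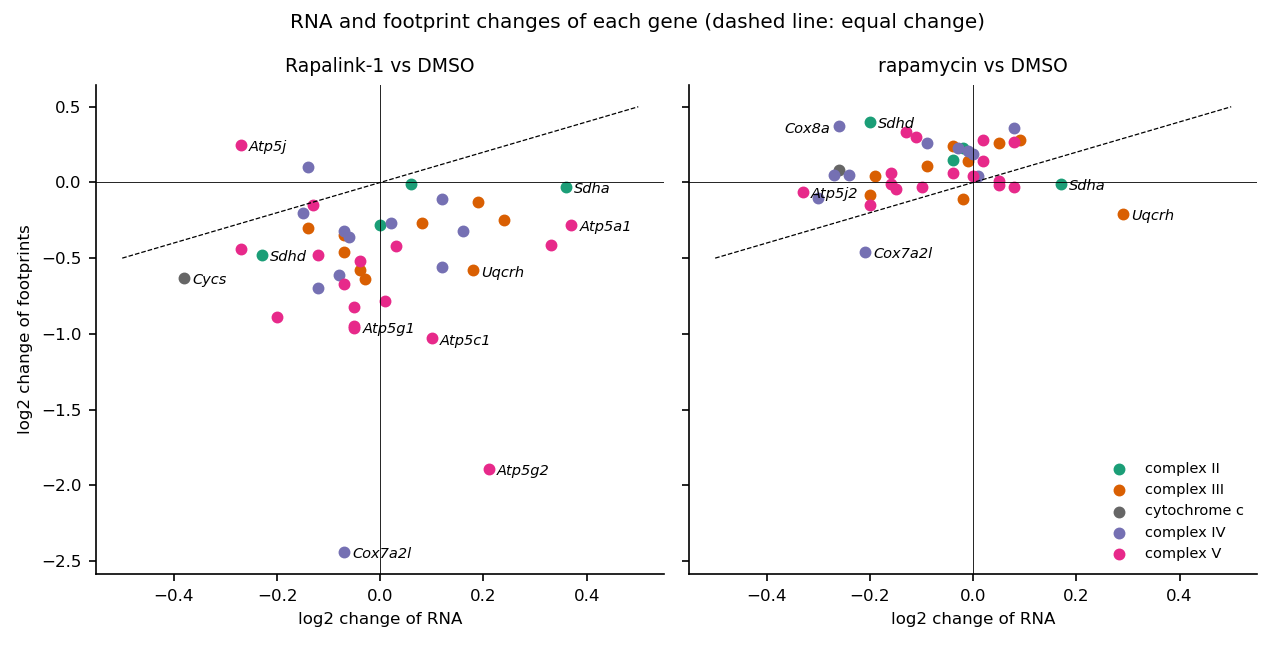
Log2 change of RNA (x axis) against log2 change of footprints (y axis) for the 41 genes with Rapalink-1 against DMSO (left) and rapamycin against DMSO (right), coloured by complex, with a dashed line where both are equal. With Rapalink-1 most genes lie below the line, Cox7a2l at -2.44 and Atp5g2 at -1.89 in footprints, while with rapamycin most lie on or above it.

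With rapamycin the direction was the other one for most genes that passed. Efficiency was higher than with DMSO for 16 of the 41 genes and lower for Uqcrh alone, against 6.52% and 9.85% of all genes. Complex IV held 8 of the 16, complex V 4, complex II 2, complex III 1, and Cycs was the last. The medians were 0.26 for complex IV, 0.23 for complex II, 0.19 for complex III and 0.12 for complex V, and were 0.30, 0.27, 0.24 and 0.16 under library totals. Footprints were higher for 17 and lower for 2, against 8.75% and 9.40% of all genes, and RNA was higher for 2 and lower for 14, against 13.6% and 10.5%. The genes with lower footprints were Cox7a2l and Uqcrh, and Uqcrh did not pass without DMSO replicate 2 or rapamycin replicate 1, which left 1. Without DMSO replicate 2, RNA was higher for 4 and efficiency lower for 2, and without DMSO replicate 3 efficiency was also lower for 2. These comparisons share their DMSO libraries with those of Rapalink-1. The names of the footprint libraries carry a suffix in the Rapalink-1 and DMSO groups that the rapamycin group lacks, its meaning is not given, and its part in these differences cannot be told apart from the drug's.

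The largest rises with rapamycin were those of Cox8a and Sdhd. Cox8a, a membrane subunit of complex IV named after its values were seen, had 183, 211 and 192 footprint CPM with rapamycin against 141, 153 and 159 with DMSO. Its RNA was 146, 150 and 141 CPM with rapamycin against 174, 166 and 183 with DMSO, and efficiency rose by 0.63 ± 0.093 (adjusted p = 1.4e-06). Sdhd, on chromosome 9 from 50596340 to 50603849, had 190, 200 and 186 footprint CPM with rapamycin against 145, 159 and 134 with DMSO. Its RNA was 134 ± 1.18 CPM with rapamycin against 153 ± 4.86 with DMSO (SD, n = 3), and efficiency rose by 0.59 ± 0.086 (adjusted p = 6.2e-07). Neither gene overlapped between rapamycin and DMSO in either assay. Atp5h, a peripheral stalk subunit of complex V also named after its values were seen, had 424, 486 and 431 footprint CPM with rapamycin against 360, 365 and 366 with DMSO, and efficiency rose by 0.41 ± 0.071 (adjusted p = 2e-05). Cox5a rose in efficiency by 0.30 ± 0.074. Sdhc rose by 0.26 ± 0.076 (adjusted p = 0.014), a call lost without DMSO replicate 1 (0.061) or rapamycin replicate 3 (0.087). Cox4i1 rose by 0.26 ± 0.068, lost without rapamycin replicate 2 (adjusted p = 0.061), and Cox7a2 by 0.32 ± 0.083, lost without DMSO replicate 1 (adjusted p = 0.12). The 5 genes of the F1 part stood between -0.06 and 0.16 (adjusted p from 0.09 to 0.78).

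Set directly against rapamycin, with doses that differ (50 nM and 5 nM), Rapalink-1 gave lower efficiency for 35 of the 41 genes and higher efficiency for 1, Atp5j, against 23.9% and 26.1% of all genes. The median was -0.58, with complex V at -0.80, complex III at -0.54, complex IV at -0.48 and complex II at -0.36. Under library totals 24 were lower and 4 higher. Footprints were lower for 37 and higher for 2, Atp5j and Cox7b, against 27.6% and 25.4%. RNA was higher for 13 and lower for 4, against 19.6% and 21.5%, and under library totals higher for 6 and lower for 16. The RNA median of all genes stood at -0.14 under those totals. Without Rapalink-1 replicate 1 or rapamycin replicate 2, RNA was lower for 2. The changes in efficiency between the drugs were -2.12 ± 0.09 for Atp5g2, -2.09 ± 0.13 for Cox7a2l, -1.31 ± 0.075 for Atp5g1 and -1.25 ± 0.065 for Atp5c1. The genes with the largest rises with rapamycin, Cox8a and Sdhd, stood at -1.13 ± 0.094 and -0.80 ± 0.086. Both genes had passed as higher with rapamycin, and as lower with Rapalink-1 against DMSO, Sdhd by the narrow margin given above and Cox8a by 0.49 ± 0.094 (adjusted p = 3.3e-05), which was -0.12 under library totals (adjusted p = 0.25).

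As a share of all reads, the 41 genes took 1.25 ± 0.0122% of footprints with Rapalink-1, 1.51 ± 0.0151% with rapamycin and 1.38 ± 0.00416% with DMSO (SD, n = 3). In RNA they took 1.40 ± 0.0133%, 1.37 ± 0.00595% and 1.42 ± 0.0228% in the same order. Complex V held 0.690 ± 0.00815% of footprints with Rapalink-1, 0.850 ± 0.00908% with rapamycin and 0.794 ± 0.011% with DMSO. Complexes II, III and IV together held 0.536, 0.638 and 0.564% in the same order. In raw share alone complex II went against the rest: it held 0.0897 ± 0.000862% of footprints with Rapalink-1 against 0.0823 ± 0.00233% with DMSO. Under library totals the median footprint change of all genes was 0.283, so a raw share can rise while a gene falls against the others. With TMM scaling the footprint median of complex II was -0.15, with 2 of 4 genes lower and 0 higher. These shares are of raw library totals and carry no other scaling.

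In DMSO cells the genes differed widely in footprints per RNA read. The mean log2 ratio was 1.72 for Atp5d, 1.67 for Uqcrq and 1.63 for Atp5j, against -0.98 for Atp5k and -0.42 for Cox7c. The median over all genes was 0, where the scaling places it. Atp5d, Uqcrq and Atp5j each overlap another protein-coding gene, Cbarp, Gdf9 and Gabpa, and the part of that overlap in the ratio was not tested. Complex III had 8 of 9 genes above the median, complex V 9 of 16, complex IV 6 of 11 and complex II 2 of 4.

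Genes that work beside these complexes were taken from written lists. Of 36 subunits of complex I found, 23 fell in efficiency with Rapalink-1 and 1 rose, with a median of -0.35, the value of complex III. Under library totals 11 were lower and 9 higher, with a median of 0.02, against 0.426 over all genes. All 6 carriers of ATP and phosphate listed fell, with a median of -1.26, and 4 of them under library totals, with a median of -0.89. Slc25a4 and Slc25a5, which exchange ATP for ADP across the inner membrane, fell by 1.47 ± 0.067 and 1.41 ± 0.065, more than 15 of the 16 ATP synthase genes. With rapamycin Slc25a5 rose by 0.25 ± 0.064 (adjusted p = 0.0045) and Slc25a4 stood at 0.10 ± 0.067 (adjusted p = 0.32).

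Assembly factors of the complexes were listed apart. In efficiency with Rapalink-1 the 4 for complex II lay between -0.26 and 0.34, with Sdhaf1 at 0.34 ± 0.25 (adjusted p = 0.27). Of those for complex III 2 of 5 fell, and of 24 for complex IV 3 fell and 2 rose, or 12.5% and 8.33%, against 19.9% and 22.3% of all genes. Of 5 for complex V 1 fell, Atpif1, the inhibitor of the enzyme, by 0.29 ± 0.089 (adjusted p = 0.006). These shares were not tested against those of other genes. Their medians were -0.04, -0.15, -0.02 and -0.16 for complexes II to V, and turned to 0.33, 0.21, 0.35 and 0.21 under library totals. Uqcc2, needed to make cytochrome b, fell by 0.57 ± 0.097, with footprints at -0.85 and RNA at -0.24. Lrpprc, which keeps mitochondrial mRNAs stable, fell by 0.62 ± 0.078, mostly through RNA, at 0.52, with footprints at -0.15. Hccs, which attaches haem to cytochromes c and c1 but was listed with the factors of complex IV, is 1 of the 2 that rose there, by 0.68 ± 0.1. Its RNA stood at -0.70, and its footprints, at -0.06, did not pass.

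The 6 partner subunits encoded in mitochondrial DNA went the other way in efficiency with Rapalink-1, with 5 higher and a median of 1.68, but their libraries scattered. They took 0.710 to 1.31% of footprints in the Rapalink-1 libraries, 0.260 to 0.288% with rapamycin and 0.216 to 0.561% with DMSO. Their RNA took 1.30 to 1.37% with Rapalink-1, 1.54 to 1.76% with rapamycin and 1.33 to 2.00% with DMSO. The rise in efficiency of mt-Cytb of complex III was 2.20 ± 0.55 (adjusted p = 0.0062), and footprints alone passed for mt-Co2 and mt-Atp8.

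The authors' deposited table of translational efficiency with Rapalink-1 against DMSO has 2 of the 41 genes higher and 32 lower at an adjusted p under 0.05, with a median of -0.43. The authors' deposited table for rapamycin has 19 higher and 2 lower, with a median of 0.20. For footprints the authors' deposited tables have 1 higher and 35 lower with Rapalink-1, and 17 higher and 1 lower with rapamycin. For RNA the authors' deposited tables have 6 higher and 12 lower with Rapalink-1, and 2 higher and 15 lower with rapamycin. The shares of all genes that pass in these were not counted, so the counts cannot be read as particular to the set.

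Library depth was 7692625 to 14150068 reads for footprints and 6788365 to 13300292 for RNA, once transcripts of a gene were merged. Errors of log2 changes are standard errors of the fit and include the spread between replicates. Of the neural progenitor markers 6 of 7 were found by symbol, against 1 of 7 oligodendrocyte markers, 2 of 8 markers of microglia and blood and 1 of 8 vascular and fibroblast markers. The neural progenitor markers together took 0.0406 to 0.0419% of footprints with Rapalink-1, 0.0518 to 0.0524% with rapamycin and 0.0490 to 0.0509% with DMSO. Of RNA they took 0.0367 to 0.0387% with Rapalink-1, 0.0358 to 0.0369% with rapamycin and 0.0316 to 0.0322% with DMSO, and their part in the results above was not tested. Besides Cycs no gene of the set stayed within 10% of another feature in all libraries, and 13 of the 41 overlap another annotated gene.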

How the data were processed

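Footprint and total RNA libraries were prepared from aliquots of shared lysates using ARTseq reagents, per the labels' protocols. The build was GRCm38 (mm10), per the submitters' processing notes; aligner, counter and annotation were not given in the sources used here. Whole-number read counts per transcript, not normalized by the authors, make up the deposited count table. The authors' deposited comparison tables give log2 fold changes with errors and adjusted p-values.

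Of 27382 transcript rows, 6378 were 0 throughout; rows of a gene or with equal counts were merged to 15307 features. None of the 55 rows of the 41 genes differed within a gene. Positions and start sequences are RefSeq's in GRCm38.p6, matched by symbol or synonym for all 41 genes and for 33 starts; no gene lengths were used, so shares of reads are compared between treatments, not as levels between genes.

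Genes passing filterByExpr (minimum count 10, total 15) were fitted with edgeR 4.0.16 in R 4.3.3 (TMM, glmQLFit, glmQLFTest), in the 9 RNA and 9 footprint libraries apart. The efficiency test was the assay-by-treatment interaction in 18 libraries. P-values were adjusted by Benjamini-Hochberg over all genes tested, and a gene was called under 0.05. The coefficient of variation was 5.72% (RNA), 6.38% (footprints) and 6.05% (joint). Footprint and RNA libraries of 1 number are taken as 1 lysate from the labels' protocol; their deviations correlated at 0.15 to 0.18 in DMSO and -0.07 to 0.03 with the drugs, and this pairing entered as an alternative. The script was tested on simulated data. Alternatives were DESeq2 1.42.0 (size factors; Wald test), library totals, no count filter, only the treatments compared, replicate blocks and leaving out each replicate. Replicates of a treatment differed beyond counting noise, with a chi-square per degree of freedom of 1.94 to 9.52. Members and lists were chosen with earlier results of these data known. Named genes were 18 listed ones and, per complex, up to 2 falls and 2 rises in efficiency and 1 each in RNA, the largest past the test at a mean log2 CPM of at least 4; of other lists, up to 2 with the smallest p.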

Additional observations from a re-analysis of the deposited data

How the results depend on the processing

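Library totals without TMM moved most values. In efficiency with Rapalink-1 against DMSO they gave 8 genes higher and 13 lower, and in Rapalink-1 against rapamycin 4 higher. Footprints gave 7 higher and 22 lower with Rapalink-1, and 1 lower with rapamycin. RNA gave 4 higher and 27 lower with Rapalink-1 against DMSO, and 6 higher and 16 lower against rapamycin. The RNA medians of all genes then stood at -0.135 and -0.14 in these comparisons. The efficiency medians became 0.14, 0.02, 0.11 and -0.26 for complexes II to V with Rapalink-1, and 0.27, 0.24 and 0.16 for II, III and V with rapamycin. Such a shift is common to every gene of a comparison, so a sign can turn while a gene keeps its place among the others.

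The same totals turned the sign of 26 values of named genes. With Rapalink-1 against DMSO efficiency became 0.36 for Cox7a2, 0.12 for Cox7c, 0.13 for Cyc1, 0.16 for Cycs, 0.02 for Sdha, 0.12 for Sdhb, 0.34 for Sdhc, 0.16 for Sdhd and 0.24 for Uqcrb. Footprints became 0.12 for Atp5g3, 0.07 for Cox7a2, 0.25 for Sdha, 0.27 for Sdhc and 0.03 for Uqcrc1, and RNA -0.03 for Atp5c1, -0.02 for Cox4i1, -0.12 for Cox7c and -0.13 for Sdhb. Against rapamycin efficiency became 0.30 for Atp5g3, 0.16 for Sdha, 0.05 for Sdhc and 0.29 for Uqcrb, footprints 0.03 for Atp5g3, 0.20 for Sdha and 0.03 for Uqcrb, and RNA -0.12 for Cyc1.

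The DESeq2 Wald test called 2 genes lower in efficiency with rapamycin. Fitting only the 2 treatments compared called 7 lower in RNA between the drugs. Leaving out 1 replicate in turn gave, with rapamycin, 1 to 2 lower in efficiency, 1 to 3 lower in footprints and 2 to 4 higher in RNA. With Rapalink-1 it gave 1 to 2 higher in footprints and 5 to 11 lower in RNA, and between the drugs 2 to 4 lower in RNA. The medians ranged from -0.45 to -0.28 for complex III and from -0.69 to -0.59 for complex V with Rapalink-1, and from 0.14 to 0.22 and from 0.09 to 0.15 with rapamycin. Over the named genes, 2548 of 2775 alternative values kept direction and call, 140 lost the call, 61 gained one and 26 turned.

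Across treatments, same-numbered libraries correlated at -0.18 to 0.04 in RNA and -0.19 to 0.22 in footprints, and not every pair was above 0.1, so the numbers are not taken as pairs of treatments. With a replicate block, efficiency gave 2 higher and 32 lower for Rapalink-1, 16 and 1 for rapamycin, and 1 and 36 between the drugs, and with a block by lysate 2 and 32, 17 and 1, and 1 and 36. Among named genes the lysate block added 2 calls, Sdhb with rapamycin (0.19, adjusted p = 0.048) and Uqcrh between the drugs (-0.22, adjusted p = 0.043), and changed no other. Depth limits Atp5s, and 3 replicates limit calls near the threshold.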
